A study of Mus musculus with 5 samples.

Results

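The 8 collagen genes described here, Col4a1, Col4a2, Col4a5, Col4a6, Col15a1, Col18a1, Col7a1 and Col8a1, encode the collagens of basement membranes and of net-like matrices. They were chosen by symbol, and each was present among the 27998 genes that all 5 count tables share. The cells were sorted from dissociated spinal cord for a green fluorescent reporter of Col1a1 (Col1a1GFP, C57/BL6 background), and 10x Genomics v2 libraries of 3′ tags were made from 2 samples with experimental autoimmune encephalomyelitis (EAE 1 and EAE 2) and 3 healthy samples (Healthy 1, Healthy 2 and Healthy 3). EAE is a model of multiple sclerosis, an autoimmune inflammation of brain and cord, and Healthy means the same reporter strain without EAE. All libraries carry the reporter and were sorted for it, so endothelial cells and astrocytes were not sampled as such, although some immune cells were found in EAE. The labels name neither age, sex or disease stage nor whether each library is a separate animal, so the p-values reflect how far these libraries spread, which may be technical.

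Basement membranes are thin sheets of matrix under epithelium and endothelium and around muscle, fat and nerve fibres. In the central nervous system they line the vessels and the surface below the meninges, and immune cells must cross them to enter the tissue. Collagen IV is their scaffold: 3 chains wind into a trimer and the trimers join into a net, with Col4a1 and Col4a2 making up the common trimer and Col4a5 and Col4a6 part of the more restricted ones. Collagen XV and collagen XVIII (Col15a1 and Col18a1) lie at the border between basement membrane and fibrillar matrix, and the end of collagen XVIII can be cut off as endostatin. Collagen VII (Col7a1) forms the anchoring fibrils that tie the skin's basement membrane to the dermis, and collagen VIII (Col8a1) is a short-chain collagen of vessel walls and of the cornea's Descemet membrane.

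The genes for the common trimer stand head to head. In the genome build GRCm38.p6, Col4a1 lies on the minus strand of chromosome 8 (11198423 to 11312889) and Col4a2 on the plus strand (11312805 to 11449287). The start sites taken for the promoter windows below, 11312826 and 11312805, are 21 bases apart. The Col4a1 start lies inside Col4a2, so the genes overlap at their starts and leave no gap. Col4a6 (X, 141165403 to 141474095, minus strand) and Col4a5 (X, 141475370 to 141689236, plus strand) are also turned away from each other. Their start sites, taken the same way, are 1343 bases apart. The promoter windows of Col4a1 and Col4a2 are shown because these genes moved together in the results below. Each runs from 250 bases before the start site to 50 from it, as RefSeq gives it, 5′ to 3′ on the gene's own strand, and capitals mark the 78 bases (11312777 to 11312854) that both windows hold, read on opposite strands.
Col4a1, chr8:11312777-11313076, minus strand: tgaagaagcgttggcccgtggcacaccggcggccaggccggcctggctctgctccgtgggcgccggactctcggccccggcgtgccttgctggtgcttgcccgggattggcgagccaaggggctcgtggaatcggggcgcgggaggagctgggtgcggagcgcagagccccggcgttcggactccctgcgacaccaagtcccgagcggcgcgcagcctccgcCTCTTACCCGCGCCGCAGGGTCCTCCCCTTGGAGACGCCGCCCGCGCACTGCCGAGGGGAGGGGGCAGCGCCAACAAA
Col4a2, chr8:11312555-11312854, plus strand: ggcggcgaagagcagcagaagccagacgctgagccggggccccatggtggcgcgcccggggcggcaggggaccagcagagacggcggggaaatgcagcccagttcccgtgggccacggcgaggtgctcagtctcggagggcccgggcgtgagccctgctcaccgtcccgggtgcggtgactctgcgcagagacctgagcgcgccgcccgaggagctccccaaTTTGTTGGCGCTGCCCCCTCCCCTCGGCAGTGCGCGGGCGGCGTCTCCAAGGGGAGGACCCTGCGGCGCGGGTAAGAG
A search of both strands for GGGCGG, a letter pattern of Sp1 sites, found 1 match in the Col4a1 window and 3 in the Col4a2 window, and 35.7% of the 32851 promoter windows of the same length hold at least 1. CCAAT was matched 1 time in each (37.4% of all windows). TATAAA (13.6% of all windows) and TGANTCA, the pattern of AP-1 sites (7.81%), had no match in either window or in the windows of the other collagens. The Col8a1 window held 4 matches to GGGCGG and none to CCAAT. These matches describe letters and show no binding.

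The labels split the libraries into a first batch (EAE 1, Healthy 1 and Healthy 2), whose labels carry a sequencing lane, and a second (EAE 2 and Healthy 3). Libraries of the first shared barcodes, with 1239 common to EAE 1 and Healthy 1, 683 to EAE 1 and Healthy 2, and 996 to Healthy 1 and Healthy 2. Other pairs shared 0 to 5. A barcode was therefore kept where its UMI total was highest, and 1913, 1238, 724, 429 and 374 barcodes of EAE 1, EAE 2 and Healthy 1 to 3 passed the cell filter. Marker UMIs gated 1055, 680, 610, 357 and 310 of them as fibroblasts, 16, 10, 2, 8 and 7 as pericytes, and 32, 3, 27, 20 and 9 as smooth muscle cells. Gated fibroblasts carried 913163 to 4925776 UMIs per library. Levels are counts per 1000000 UMIs of the gated class (CPM). The 5 fibroblast markers summed to 24557 and 23438 CPM in EAE fibroblasts and to 30753, 44478 and 33559 CPM in Healthy ones. Levels rest on 3′ tags, so they order libraries and classes for a gene and not genes among themselves.

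The first comparison asked how the collagens differed between EAE and Healthy fibroblasts. Of the 8 collagens, 5 were higher in EAE fibroblasts and 1 was lower (edgeR's quasi-likelihood test, Benjamini-Hochberg adjusted p below 0.05), where 7.48% of the 9520 genes tested were higher and 7.77% lower. Col4a1, Col4a2, Col18a1, Col7a1 and Col8a1 rose, Col15a1 fell, and Col4a5 and Col4a6 did not pass. The median log2 fold change of the 8 collagens was 1.89, against 0.0035 over all genes tested. A shift in the mix of fibroblasts and a change in each cell cannot be told apart in such sums.

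**Figure D1:**
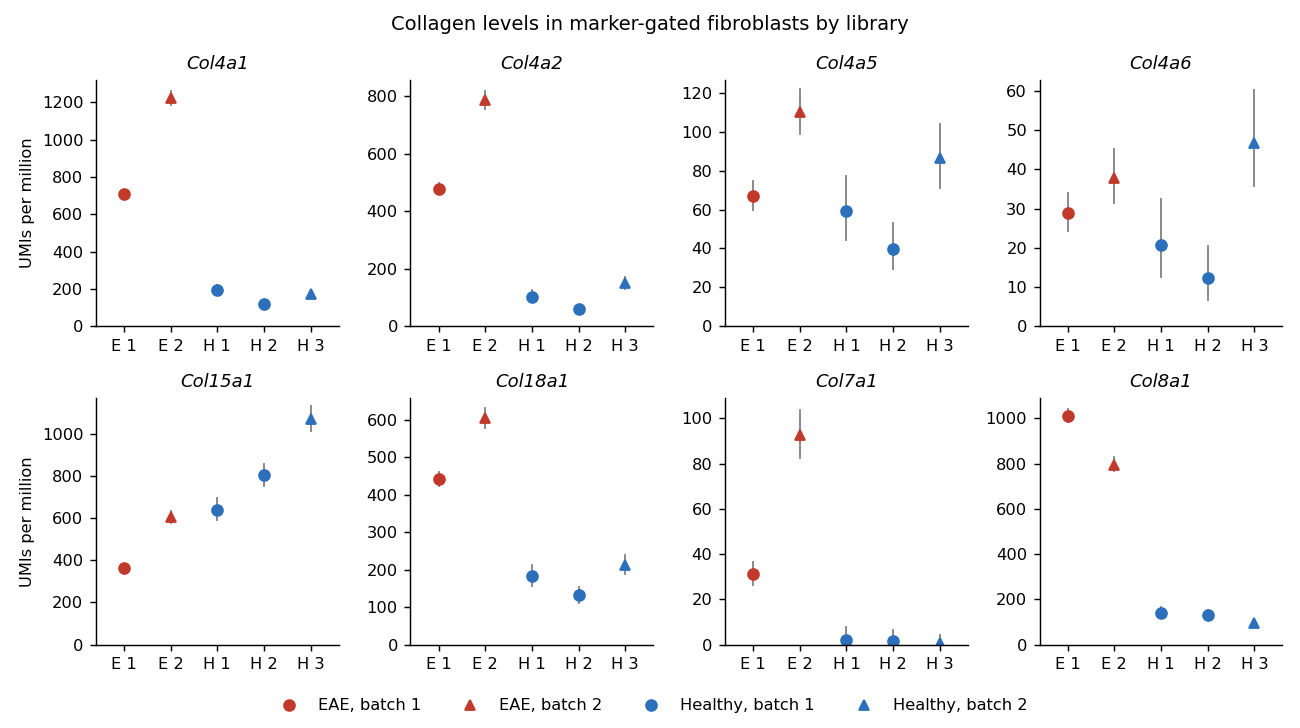
CPM, counts per 1000000 UMIs, in marker-gated fibroblasts (y axis) for each library (E, EAE; H, Healthy) and collagen. Circles are the first batch, triangles the second, and bars are exact 95% Poisson intervals, which cover counting error only. Both EAE libraries lie above all Healthy libraries for Col4a1, Col4a2, Col18a1, Col7a1 and Col8a1, and below them for Col15a1.

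The common collagen IV chains rose together. Col4a1 had 707 and 1225 CPM in EAE 1 and EAE 2, against 192, 117 and 170 CPM in Healthy 1 to 3. Its log2 fold change was 2.38 (SE 0.25, edgeR adjusted p = 2.6e-04), a 5.22-fold rise. Col4a2 had 477 and 787 CPM in EAE fibroblasts, against 102, 58.1 and 148 CPM in Healthy fibroblasts (log2 fold change 2.41, SE 0.24, edgeR adjusted p = 2.2e-04). The lowest EAE library stood well above the highest Healthy library for both chains. Within the first batch EAE fibroblasts had 4.71 times the Col4a1 level of the pooled Healthy ones, and within the second 7.21 times. For Col4a2 the within-batch ratios were 6.16 and 5.31.

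The share of Col4a1 in the pair overlapped between the states. Of Col4a1 plus Col4a2 UMIs, Col4a1 was 59.7% and 60.9% in EAE 1 and EAE 2 fibroblasts, against 65.3%, 66.8% and 53.4% in Healthy 1 to 3. The Healthy libraries lay on both sides of the EAE ones, and the means differed by -1.56 points (exact two-sided permutation p = 1, smallest possible 0.2). Counts were lowest in Healthy 2, with 135 UMIs of Col4a1 and 67 of Col4a2, and the exact 95% binomial interval there ran from 59.9% to 73.3%. A p-value of this size does not show that the shares were alike.

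The chains of the restricted trimers did not pass the test. Col4a5 had 67.0 and 110 CPM in EAE libraries and 59.1, 39.9 and 86.6 CPM in Healthy ones, and the states overlapped (log2 fold change 0.31, SE 0.22, edgeR adjusted p = 0.400). Col4a6 had 28.8 and 37.9 CPM in EAE against 20.8, 12.1 and 46.8 CPM in Healthy libraries, with Healthy 3 the highest of all 5 (0.19, SE 0.30, adjusted p = 0.736). The sign for Col4a6 turned without EAE 1 (-0.38) or without Healthy 2 (-0.077). Within batches the ratios were 1.38 and 1.27 for Col4a5, and 1.80 and 0.81 for Col4a6.

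Of the collagens at the border of the basement membrane, Col18a1 rose and Col15a1 fell. Col18a1 had 442 and 605 CPM in EAE fibroblasts, against 183, 131 and 213 CPM in Healthy ones (log2 fold change 1.40, SE 0.20, edgeR adjusted p = 0.0015). The states did not overlap, and the within-batch ratios were 2.87 and 2.84. Without EAE 1 the log2 fold change was 1.42 but did not pass. Col15a1 had 364 and 604 CPM in EAE fibroblasts, against 640, 803 and 1071 CPM in Healthy ones. Its log2 fold change was -1.02 (SE 0.19, adjusted p = 0.00596), and the within-batch ratios were 0.498 and 0.564. EAE 2 lay just under Healthy 1, and the fall did not pass without EAE 1 (-0.91), without EAE 2 (-1.08) or with no batch term (-0.90).

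Col7a1 and Col8a1, the anchoring fibril and short-chain collagens, had the largest log2 fold changes of the 8. Col7a1 was close to absent from Healthy fibroblasts. It had 153 and 298 UMIs (31.1 and 92.6 CPM) in EAE 1 and EAE 2, against 2, 2 and 1 UMIs (2.19, 1.74 and 0.78 CPM) in Healthy 1 to 3. Its log2 fold change was 4.99 (SE 0.47, edgeR adjusted p = 1.8e-04), and the within-batch ratios, 16.0 and 119, rest on those 5 Healthy UMIs. EAE 2 stood well above EAE 1, and both far above the Healthy libraries. Col8a1 had 1013 and 796 CPM in EAE fibroblasts, against 139, 131 and 95.9 CPM in Healthy ones, a 7.30-fold rise (log2 fold change 2.87, SE 0.19, adjusted p = 4.3e-05). Within batches Col8a1 was 7.53 and 8.30 times as high in EAE. Both EAE libraries exceeded all Healthy libraries for 5 of 8 collagens and lay below them for 1, where 26.6% and 17.1% of all genes tested did so.

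The way barcodes were counted bore on these calls. Counting each barcode once removed 2 barcodes from EAE 1, 1549 from Healthy 1 and 684 from Healthy 2. With all barcodes as deposited, Col18a1 (1.14) and Col15a1 (-0.84) alone passed, where 4.22% of genes were higher and 5.75% lower. The log2 fold changes were then 1.71 for Col4a1, 1.53 for Col4a2, 2.32 for Col7a1 and 1.68 for Col8a1. With barcodes found in 1 library alone, a setting chosen after the data were seen, Col4a1 (1.96), Col4a2 (1.94), Col18a1 (1.32), Col8a1 (2.36) and Col15a1 (-1.06) passed and Col7a1 was not tested, where 4.35% of genes were higher and 4.02% lower. That setting kept 378 and 680 fibroblasts of EAE 1 and EAE 2, and 607, 103 and 310 of Healthy 1 to 3.

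**Figure D2:**
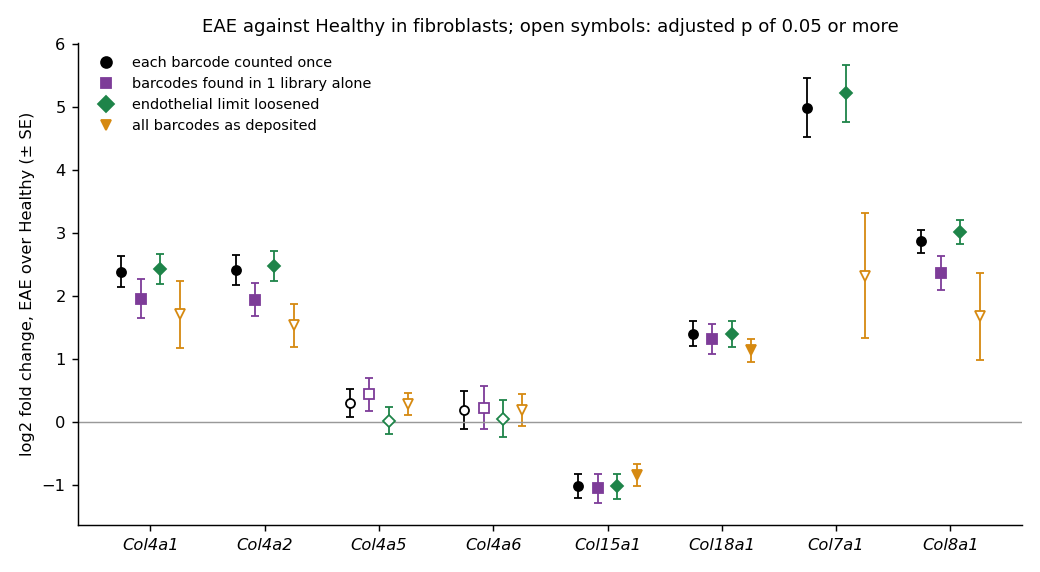
Log2 fold change of each collagen in fibroblasts, EAE over Healthy (y axis, bars show the standard error), with each barcode counted once and under 3 other settings. Filled symbols passed an adjusted p of 0.05. For Col4a1, Col4a2, Col15a1, Col18a1, Col7a1 and Col8a1 the values as deposited lie closer to 0 than those counted once, and the direction was the same in every setting drawn (Col7a1 was not tested with barcodes of 1 library alone).

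Some marker sums of other cell types moved with the states in gated fibroblasts. The 8 smooth muscle markers summed to 525 and 396 CPM in EAE fibroblasts and to 159, 130 and 80.3 CPM in Healthy ones, with Pln at 0 in both EAE libraries and in Healthy 2 and Healthy 3, Myh11 at 0 in EAE 2, Cnn1 at 0 in Healthy 1 and Lmod1 at 0 in Healthy 2. The 6 endothelial markers summed to 102 and 92.6 CPM in EAE and to 70.1, 46.9 and 58.5 CPM in Healthy fibroblasts, and Cldn5 was at 0 in every library. Of these, Cdh5 (62.1 and 58.4 CPM in EAE against 49.3, 33.0 and 29.6 CPM) and Emcn (33.7 and 19.9 against 8.76, 8.68 and 5.46 CPM) were higher in EAE. Pecam1 (1.83 and 10.3 against 7.67, 4.34 and 21.1 CPM), Flt1 and Tek overlapped between the states. The sum of the 9 pericyte markers was lower in EAE, with 810 and 984 CPM against 1600, 1373 and 1480 CPM in Healthy fibroblasts. Not each of them followed the sum: Higd1b was at 0 in every Healthy library and in neither EAE library. Atp13a5 was at 0 in EAE 2, Healthy 1 and Healthy 3. Osteoblast markers stood out in Healthy 2 at 4629 CPM. Without fibroblasts that held over 1 UMI of the osteoblast or chondrocyte list (3, 4, 5, 14 and 12 cells), a setting added after the data were seen, the same 5 collagens rose and Col15a1 fell, with log2 fold changes of 2.41 for Col4a1, 2.95 for Col8a1 and -1.05 for Col15a1, where 7.93% of genes were higher and 8.39% lower. The part of the other marker lists in the results was not tested. The limit of 1 endothelial UMI left out many EAE cells: 586 and 482 ungated cells of EAE 1 and EAE 2 exceeded it, against 11, 20 and 40 of Healthy 1 to 3. With that limit loosened, 1599, 1091, 620, 373 and 342 fibroblasts gave the same 5 rises and 1 fall, where 9.73% of genes were then higher and 10.2% lower.

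The share of fibroblasts with a UMI was compared after thinning each cell to 1000 UMIs, because depth differed between libraries. Thinning left out 0 and 42 fibroblasts of EAE 1 and EAE 2, and 232, 19 and 8 of Healthy 1 to 3. Col4a1 was found in 36.9% and 46.1% of thinned EAE fibroblasts, against 16.4%, 10.4% and 16.9% of Healthy ones. Col8a1 was found in 43.0% and 34.3% of EAE and in 10.6%, 8.88% and 5.96% of Healthy fibroblasts. Col15a1, in contrast, was found in 22.7% and 32.4% of EAE and in 45.5%, 50.3% and 58.3% of Healthy fibroblasts. Before thinning, Col4a1 was found in 69.3% of EAE 1 fibroblasts. For 6 collagens the states did not overlap and the exact two-sided permutation p was 0.2, the smallest that 2 against 3 libraries allow. For Col4a5 it was 0.4 and for Col4a6 1. Thinned shares were not computed for all genes. Whether 6 collagens without overlap are more than other genes would give was therefore not tested.

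Immune cells, which should lack most of these collagens, were used as a guide to the background of free RNA. Their gate set no limit on fibroblast markers, which summed to 3493 and 5056 CPM in EAE 1 and EAE 2 immune cells. No doublet caller was run, so free RNA and doublets with fibroblasts cannot be told apart in them. In the 133 immune cells of EAE 1, thinned alike, 4.51% held Col4a1, 6.02% Col8a1, 3.01% Col15a1 and 0.752% Col7a1. In the 29 of EAE 2, Col8a1 was found in 6 cells (20.7%, exact 95% interval 7.99% to 39.7%) and Col7a1 in 1 (3.45%). Col7a1 was found in 2.09% and 7.37% of EAE fibroblasts, so its share lay within the interval of the immune cells of the same library in EAE 1 (0.0190% to 4.12%) and in EAE 2 (0.0873% to 17.8%). The same held for Col8a1 in EAE 2, for Col4a5 in EAE 2 (10.3% against 0% to 11.9%) and for Col4a6 in EAE 1 (2.65% against 0% to 2.74%) and EAE 2 (2.66% against 0% to 11.9%). These shares are not read as above background, and the other shares of EAE fibroblasts lay above the immune intervals. Healthy libraries held at most 1 immune cell each and gave no such background.

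**Figure D3:**
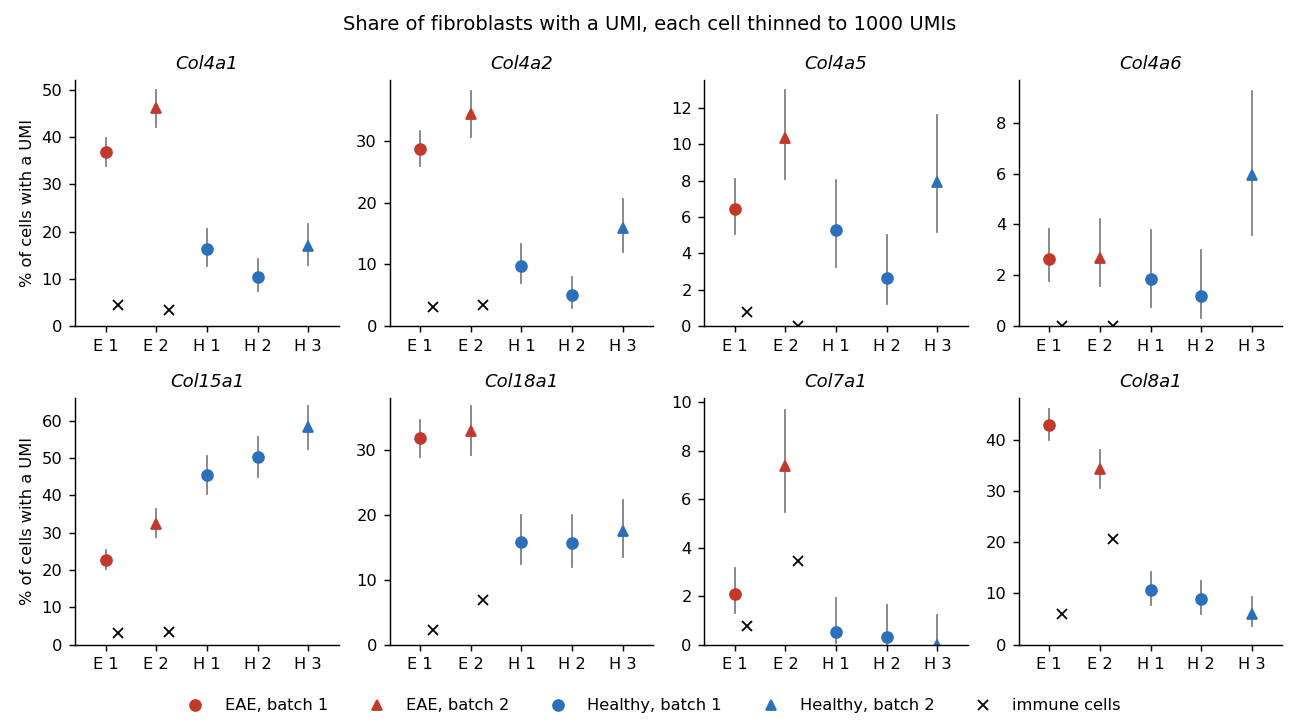
Percent of marker-gated fibroblasts with at least 1 UMI (y axis) after thinning each cell to 1000 UMIs, by library. Bars are exact 95% binomial intervals and crosses mark immune cells of the same EAE library. Shares in both EAE libraries exceed those in all Healthy libraries for Col4a1, Col4a2, Col18a1, Col7a1 and Col8a1, and lie below them for Col15a1.

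Fibroblasts were next set against the mural cells of the vessel wall, pericytes and smooth muscle cells, which make basement membrane collagen in most tissues. Their numbers were small, and only libraries with at least 10 cells of both classes entered a test. Against smooth muscle cells (EAE 1, Healthy 1 and Healthy 2), Col15a1 and Col8a1 were higher in fibroblasts and Col4a1, Col4a2 and Col18a1 were lower, where 15.1% of 7139 genes were higher and 8.87% lower. Col15a1 had 364, 640 and 803 CPM in fibroblasts of these libraries, against 0, 67.8 and 0 CPM in their smooth muscle cells (0, 3 and 0 UMIs). Its log2 fold change was 5.48 (SE 0.52, edgeR adjusted p = 1.2e-23). Col4a1 had 707, 192 and 117 CPM in fibroblasts and 1178, 474 and 311 CPM in smooth muscle cells, which were higher in each library (-0.86, SE 0.30, adjusted p = 0.018).

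Col4a2 had 477, 102 and 58.1 CPM in fibroblasts and 716, 249 and 326 CPM in smooth muscle cells (-1.12, SE 0.33, edgeR adjusted p = 0.0042). For Col18a1 the log2 fold change was -0.82 (SE 0.31, adjusted p = 0.033). The median of all genes stood at 0.27 on this scale and at 0.062 with library totals. Col8a1 depended on EAE 1: its log2 fold change was 1.48 with that library (SE 0.40, adjusted p = 0.002) and 0.014 without it. Col8a1 had 1013 CPM in EAE 1 fibroblasts against 92.4 CPM in the smooth muscle cells of that library, but 139 and 131 CPM in Healthy 1 and Healthy 2 fibroblasts against 203 and 119 CPM in their smooth muscle cells. None of the 3 collagens that were lower passed with DESeq2, with all barcodes as deposited, with no filter on low counts or with no library block. Without Healthy 2 all 3 were lost (-0.81, -0.69 and -0.70 for Col4a1, Col4a2 and Col18a1), and without Healthy 1 so were Col4a1 (-0.86) and Col18a1 (-0.84).

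Pericytes reached 10 cells in EAE 1 and EAE 2 alone, so this comparison rests on 4 sums and 1 residual degree of freedom. Col15a1 was higher in fibroblasts, with 364 and 604 CPM against 173 and 194 CPM in pericytes (log2 fold change 1.70, SE 0.33, edgeR adjusted p = 2.4e-05). Col8a1 was higher as well, with 1013 and 796 CPM in fibroblasts against 807 and 546 CPM in pericytes (0.77, SE 0.23, adjusted p = 0.0206). Col7a1 passed too, with 153 and 298 UMIs in fibroblasts and 0 UMIs in pericytes. Over both EAE libraries 0 of 126221 pericyte UMIs allows up to 23.8 CPM at 3 counts over the group, so the level in fibroblasts was at least 2.33-fold higher. In the comparison with pericytes 2.98% of 9851 genes were higher and 1.27% lower. The other 5 collagens did not pass: Col4a1 had 707 and 1225 CPM in fibroblasts against 1325 and 1180 CPM in pericytes, and the 95% Poisson interval in EAE 1 pericytes ran from 1068 to 1625 CPM. DESeq2 called none of the 8, and neither did the fit with no library block. The median of all genes was 0.26 on this scale and -0.072 with library totals, with which Col8a1 stood at 0.43 and did not pass.

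The pericyte gate also held fibroblast marker RNA. The 5 fibroblast markers summed to 15400 and 15228 CPM in gated pericytes of EAE 1 and EAE 2, against 6771 and 6707 CPM for the 9 pericyte markers. A second gate, chosen after this was seen, kept mural cells with more mural than fibroblast marker UMIs and loosened the endothelial limit. It left 17 and 21 pericytes in EAE 1 and EAE 2, in which fibroblast markers summed to 4301 and 2035 CPM, pericyte markers to 13059 and 14042 CPM, and endothelial markers to 500 and 418 CPM. There Col15a1 no longer passed (log2 fold change 1.12, SE 0.44, edgeR adjusted p = 0.130). Col8a1 (1.68, SE 0.49, adjusted p = 0.0154), Col7a1 (4.19) and Col4a5 (3.38, SE 0.77, adjusted p = 3.9e-04) were higher in fibroblasts, where 3.56% of genes were higher and 2.17% lower. Col4a5 had 61.3 and 94.7 CPM in fibroblasts of that gate, against 15.6 and 7.09 CPM in pericytes, or 1 UMI in each library.

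**Figure D4:**
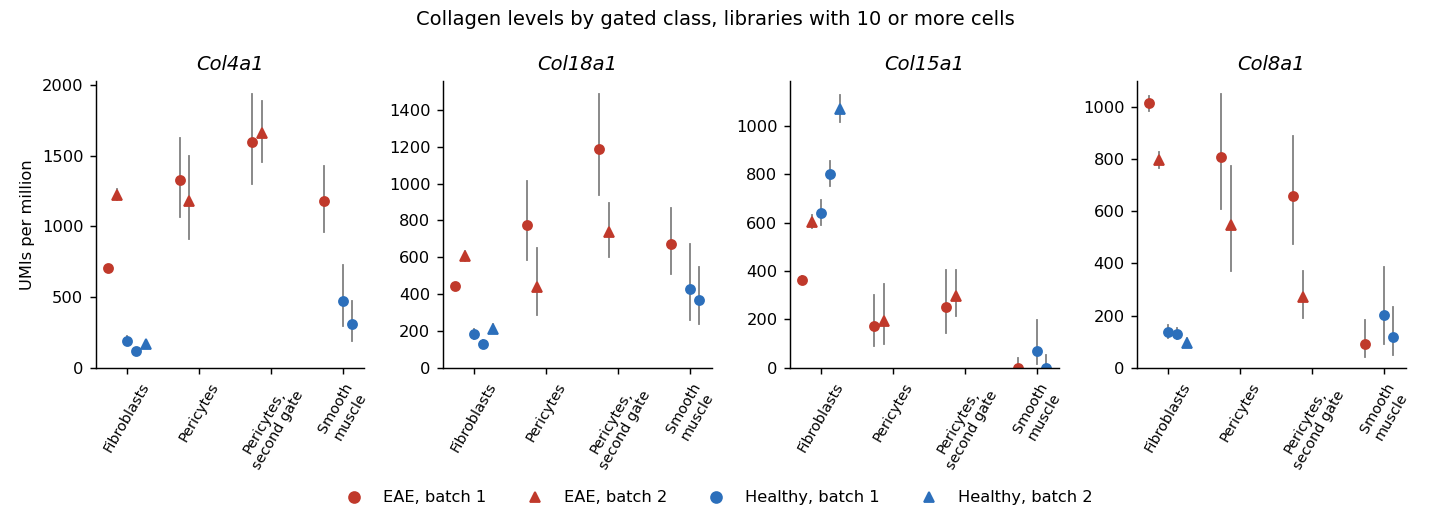
CPM, counts per 1000000 UMIs, (y axis) of Col4a1, Col18a1, Col15a1 and Col8a1 in fibroblasts, pericytes, pericytes of the second gate and smooth muscle cells (x axis), for each library with at least 10 cells of the class. Bars are exact 95% Poisson intervals. Col15a1 stands at 364 to 1071 CPM in fibroblasts and at 0 to 67.8 CPM in smooth muscle cells, and Col4a1 in EAE 1 and EAE 2 pericytes lies between 1180 and 1660 CPM over the 2 gates.

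A comparison of pericytes with smooth muscle cells was not fitted, since EAE 1 alone had 10 cells of both. In that library Col15a1 had 173 CPM in pericytes and 0 CPM in smooth muscle cells, where 0 UMIs allow up to 34.6 CPM. Col8a1 had 807 CPM in pericytes against 92.4 CPM in smooth muscle cells, whose 95% Poisson intervals did not meet (609 to 1048 CPM against 39.9 to 182 CPM). Col4a1 had 1325 and 1178 CPM and Col18a1 778 and 670 CPM in pericytes and smooth muscle cells, with overlapping intervals.

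Pericytes and smooth muscle cells were also summed as mural cells, a comparison added once cell numbers were known. Over 5 libraries Col15a1 (log2 fold change 2.39, SE 0.27), Col7a1 and Col8a1 (0.75, SE 0.26, edgeR adjusted p = 0.0271) were higher in fibroblasts and Col4a1 (-0.74, SE 0.22, adjusted p = 0.0122) was lower, where 10.4% of 8441 genes were higher and 7.61% lower. In Healthy libraries Col4a1 had 192, 117 and 170 CPM in fibroblasts and 450, 361 and 564 CPM in mural cells, which stood above them in each. In EAE it had 707 and 1225 CPM in fibroblasts and 1244 and 982 CPM in mural cells, so the order held in EAE 1 and turned in EAE 2. With the endothelial limit loosened EAE 2 had 1291 CPM in fibroblasts and 1760 CPM in mural cells, and with the second gate 1291 and 1603 CPM, so mural cells stood above fibroblasts there as well. Without Healthy 1, 2 or 3 the Col4a1 difference did not pass (-0.73, -0.55 and -0.57), and without EAE 1, EAE 2 or Healthy 2 the Col8a1 difference did not (0.52, 0.67 and 0.77). With DESeq2 only Col15a1 passed. Under the first gate Col7a1 had 0 UMIs in mural cells of every library. With the endothelial limit loosened it had 8.93 and 57.8 CPM in EAE 1 and EAE 2 mural cells. With the second gate it had 6.64 CPM in EAE 1 and 0 CPM in EAE 2. The Col7a1 difference between fibroblasts and mural cells did not pass in 2 of 10 alternatives, and its lowest log2 fold change was 1.17.

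Mural cells themselves were compared between the states. None of the 5 collagens tested passed with edgeR or DESeq2, where 1.66% of 1387 genes were higher and 0.288% lower. At an unadjusted p under 0.05, 2 of the 5 (Col4a1 and Col8a1) and 13.6% of all genes passed. Col4a1 had 1244 and 982 CPM in EAE mural cells, against 450, 361 and 564 CPM in Healthy ones, and the states did not overlap (log2 fold change 1.28, SE 0.34, edgeR adjusted p = 0.077). Col8a1 had 410 and 429 CPM in EAE, against 184, 92.7 and 137 CPM in Healthy mural cells (1.63, SE 0.44, adjusted p = 0.082). The mix of mural cells differed: pericytes were 16 of 48 and 10 of 13 cells in EAE, against 2 of 29, 8 of 28 and 7 of 16 in Healthy libraries. Col8a1 in EAE 1 was 807 CPM in pericytes and 92.4 CPM in smooth muscle cells, which lay below the 203 and 119 CPM of Healthy 1 and Healthy 2 smooth muscle cells. The part of this mix in the mural values was not tested, nor was that of the fibroblast marker RNA in gated pericytes. With the endothelial limit loosened both passed, with log2 fold changes of 1.70 (SE 0.32, adjusted p = 0.0115) and 1.84 (SE 0.40, adjusted p = 0.0237), where 2.49% of genes were higher and 1.12% lower. With the second gate Col4a1 (1.68, edgeR adjusted p = 0.0429) and Col15a1 (edgeR adjusted p = 0.0202) passed as higher, where 1.40% of genes were higher and 0.269% lower. Col8a1 did not pass there. Its within-batch ratios were 2.56 and 1.54, against 4.14 and 3.34 with the endothelial limit loosened alone. The sign of Col15a1 was the opposite under the first gate (-0.92), and its call under the second rests on 1 UMI in all Healthy mural cells. Without EAE 2 the log2 fold change was 1.63 for Col4a1 and 1.58 for Col4a2, and without Healthy 3 Col4a1 passed (1.61). Leaving out 1 library at a time gave 0 to 47 genes higher in EAE mural cells.

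Whether the state effect differed between fibroblasts and mural cells was tested with an interaction term. Col4a2 passed, with an effect 1.69 larger (log2, SE 0.42, edgeR adjusted p = 0.0116) in fibroblasts, where 0.462% of 8441 genes had a larger and 0.557% a smaller effect there. Col4a2 had 833 and 609 CPM in EAE mural cells and 225, 319 and 778 CPM in Healthy ones, and Healthy 3 exceeded EAE 2. With the endothelial limit loosened EAE 2 lay above Healthy 3 (1227 against 778 CPM), and with the second gate too (1055 against 843 CPM). The difference did not pass in 8 of 12 alternatives. Among these were the endothelial limit loosened (1.15), all barcodes as deposited (0.94), DESeq2 and the second gate (1.32). The fits without EAE 2 (0.98), Healthy 2 (1.47) or Healthy 3 (1.46) were among them too. For Col4a1 it was 1.13 (SE 0.39, adjusted p = 0.186), for Col18a1 1.12 (SE 0.43, adjusted p = 0.303) and for Col8a1 1.09 (SE 0.47, adjusted p = 0.441). For Col15a1 it was -0.25 (SE 0.48, adjusted p = 0.991).

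With the second gate Col15a1 stood apart in mural cells. It had 16 and 42 UMIs (106 and 288 CPM) in EAE mural cells of that gate, against 0, 0 and 1 UMIs (0, 0 and 18.7 CPM) in Healthy ones. The EAE UMIs came from pericytes, where 6 of 17 and 9 of 21 cells held Col15a1. The 8 and 4 pericytes of Healthy 2 and Healthy 3 in that gate held none, which allows up to 102 and 217 CPM. Under the first gate, 8 and 7 pericytes of those libraries held 4 and 29 UMIs of Col15a1.

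Levels also varied among fibroblasts. Only fibroblasts with at least 1000 UMIs were used here, which left out 232 in Healthy 1 and 0 in EAE 1. Cells with at least 2 of 3 marker genes were grouped by lists that came from earlier results of these data. The values are given as a description with no test. Cells with Osr2, Gfra1 and Dlk1 (14 and 35 in EAE, 33, 59 and 82 in Healthy libraries) held less Col8a1 than the other fibroblasts in all 5 libraries, at 0.12 and 0.060 times their level in EAE and 0.29, 0.62 and 0.59 times in Healthy libraries. For Col4a1 the ratios were 0.38 and 0.072 in EAE, and 0.36, 0.99 and 0.60 in Healthy libraries. For Col4a2 they were 0.30 and 0.12 in EAE, and 1.14, 0.72 and 0.54 in Healthy libraries, so collagen IV was not lower in each Healthy library. Their Col4a1 level was 269 and 92.7 CPM in EAE and 72.1, 116 and 116 CPM in Healthy libraries, with EAE 2 between the Healthy values. Their Col8a1 level was 126 and 49.9 CPM in EAE, against 48.1, 87.8 and 65.5 CPM in Healthy libraries. Col7a1 was at 0 UMIs in all 5. Col15a1 was 610 and 556 CPM in EAE and 1022, 1117 and 1332 CPM in Healthy libraries, so its levels did not overlap here. The Poisson intervals of EAE 1 (423 to 853 CPM, 14 cells) and Healthy 1 (816 to 1263 CPM) did meet. In some other groups, given below, the Col15a1 levels of the states overlapped.

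Col4a5 and Col4a6 were unevenly spread among fibroblasts in both states. Cells with Clec3b, Fmod and Igfbp2 (198 and 102 in EAE, 120, 66 and 107 in Healthy libraries) held 101 and 204 CPM of Col4a5 in EAE and 103, 113 and 184 CPM in Healthy libraries. That was 1.68 and 2.17 times the level of the other fibroblasts in EAE and 3.07, 4.62 and 5.28 times in Healthy libraries. For Col4a6 the ratios were 2.097 and 2.36 in EAE, and 6.02, 6.44 and 7.47 in Healthy libraries. Col4a1 in these cells was 0.64 and 0.92 times the level of the others in EAE, against 2.06, 3.10 and 2.17 times in Healthy libraries. Its level in them was still higher in EAE, at 482 and 1146 CPM against 281, 267 and 261 CPM. Cells with Itih5, Hsd11b1 and Edn3 also exceeded the others for Col4a5 (1.52 to 3.42 times) and Col4a6 (1.79 to 4.55 times) in all 5 libraries. The lists share cells: 254 of 593 Clec3b, Fmod and Igfbp2 cells were also among the 590 Itih5, Hsd11b1 and Edn3 cells. In cells with Igfbp3, Slc13a3 and Wnt4 Col4a1 was 533 and 812 CPM in EAE, against 163, 148 and 226 CPM in Healthy libraries. Col15a1 overlapped between the states in Clec3b, Fmod and Igfbp2 cells (200 and 613 against 432, 456 and 842 CPM). It also did in the Igfbp3, Slc13a3 and Wnt4 cells (167 and 278 against 277, 296 and 313 CPM). It did so in Itih5, Hsd11b1 and Edn3 cells as well (405 and 706 against 669, 840 and 1070 CPM). It did not in cells with Inmt, Cldn1 and Aldh1a3 (197 and 325 against 701 and 757 CPM in Healthy 2 and Healthy 3).

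In EAE, cells with Lsp1, Npy1r and Dapk1 held 1333 and 1162 CPM of Col8a1 (1.64 and 2.06 times the others). Cells with Inmt, Cldn1 and Aldh1a3 held 133 and 165 CPM, or 0.13 and 0.19 times the level of the others. Cells with Lcn2, Saa3 and C3, genes of the acute inflammatory response, numbered 589 and 162. Their Col18a1 level was 0.66 times that of the others in both EAE libraries and their Col15a1 level 0.49 and 0.74 times.

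**Figure D5:**
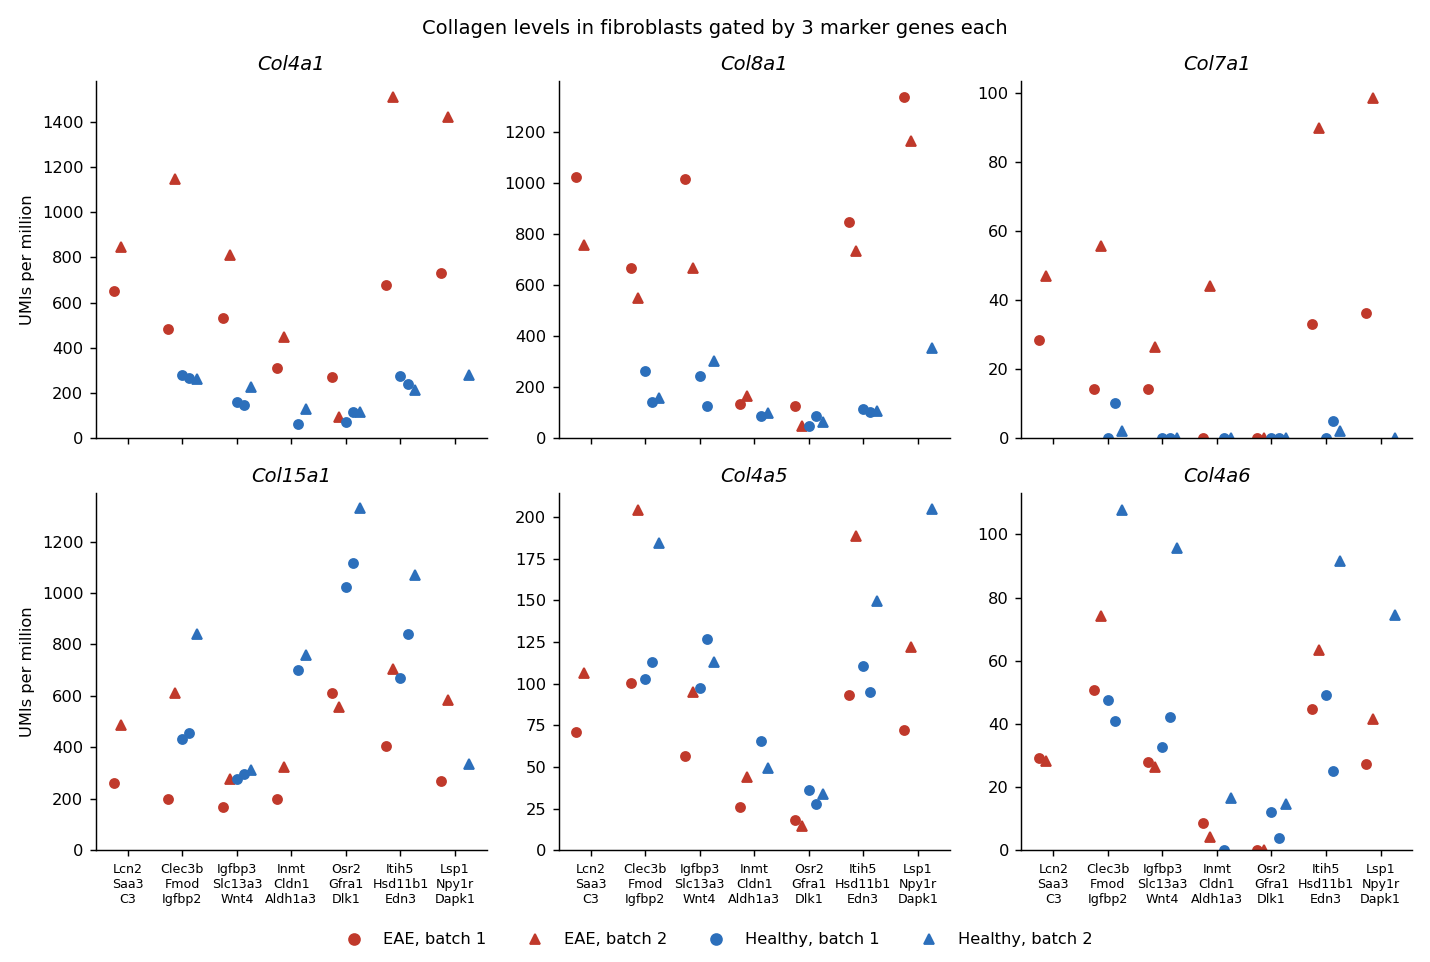
CPM, counts per 1000000 UMIs, (y axis) of 6 collagens in fibroblasts grouped by lists of 3 marker genes (x axis), by library with at least 10 such cells. Only fibroblasts with at least 1000 UMIs entered. In EAE libraries Col8a1 lies at 49.9 to 165 CPM in the Osr2 and Inmt groups and at 1333 and 1162 CPM in the Lsp1 group, and Col4a5 and Col4a6 are higher in Clec3b and Itih5 cells than in Osr2 cells.

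Genes that work with these collagens were counted from 2 lists in the same fibroblast comparison. Of 26 other basement membrane genes 16 were tested, and 3 rose (Lama4, Nid2 and Agrn) and 3 fell (Smoc2, Lamc3 and Lama2), where 7.48% of all genes tested were higher and 7.77% lower. Their median log2 fold change was -0.097, against 0.0035 over all genes. Smoc2, a matricellular protein that binds calcium, had 134 and 130 CPM in EAE fibroblasts against 710, 1269 and 901 CPM in Healthy ones (log2 fold change -2.95, SE 0.28, edgeR adjusted p = 2.2e-04). Lama2, a laminin chain of muscle and nerve, had 124 and 181 CPM against 224, 323 and 306 CPM in Healthy libraries (-1.08, SE 0.24). Lamc3, another laminin chain, fell by 1.39 on the log2 scale. Lama4, a laminin chain of vessels, rose by 0.77 (SE 0.20, adjusted p = 0.0252), and Nid2, which links laminin to collagen IV, by 0.81 (SE 0.25, adjusted p = 0.0499).

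Of 24 genes of collagen IV folding, crosslinking, receptors and turnover, 23 were tested, with 6 higher and 1 lower, beside the same 7.48% and 7.77% of all genes. Their median log2 fold change was 0.27, against 0.0035 over all genes. Timp1, an inhibitor of matrix metalloproteinases, had 1837 and 581 CPM in EAE fibroblasts, against 98.6, 28.6 and 4.68 CPM in Healthy ones (5.36, SE 0.76, edgeR adjusted p = 0.0251). Plod2, a lysyl hydroxylase of collagen, had 107 and 138 CPM in EAE and 50.4, 52.9 and 43.7 CPM in Healthy libraries (1.21, SE 0.23, adjusted p = 0.00562). Mmp14, a membrane-bound metalloproteinase, rose by 0.90 (SE 0.20). Ctsb, a lysosomal protease, fell to 797 and 818 CPM in EAE, against 1196, 1840 and 1763 CPM in Healthy libraries (-1.11, SE 0.21).

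Across the 10 sums of a library and gated class with at least 10 cells, the levels of Col4a1 and Col4a2 ran together (Pearson's r 0.969 on log2 of CPM plus 1). Col18a1 followed them, at 0.947 with Col4a1 and 0.968 with Col4a2, whereas Col15a1 had r of -0.27, -0.35 and -0.43 with Col4a1, Col4a2 and Col18a1. Over 6072 genes compared, genes outside the collagens that ranked among the most like Col4a1 were Adgra2 (0.952), Lhfp (0.949), Nuak1 (0.938) and Sh3glb1 (0.916). Among the most like Col18a1 were Rnf150 (0.940), Xrn2 (0.915), 1700025G04Rik (0.915) and Npy1r (0.912). Col15a1 was closest to Enpp2 (0.992), Plk2 (0.991), Dcn (0.987), Hexa (0.985) and Cotl1 (0.985), and Dcn is one of the fibroblast gate markers. Col8a1 was closest to C6 (0.965), Rpl27 (0.954), Pmepa1 (0.943), Serpina3g (0.941) and Gnb2l1 (0.940). The sums share 5 libraries, their depths and their classes, so these values are descriptions.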

How the data were processed

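Single cells of 5 libraries were measured as UMI counts per gene, deposited by the authors as raw count tables of whole numbers, 1 per library. The submitters' processing notes name Cell Ranger 2.1.1, Seurat and the build mm10, without saying how each was applied. The first batch lists 28692 genes and the second 27998, and the 27998 shared genes were kept (99.46% of UMIs in EAE 1 and more in the others). Total UMIs were 10775024 and 7317084 in EAE 1 and EAE 2, and 1990869, 1949879 and 1588693 in Healthy 1 to 3. A batch here is a naming split: the first batch's labels carry a lane and the second's do not.

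A barcode in more than 1 table of the first batch was kept where its UMI total was highest, which removed 2235 of 7205. Of those removed, 2 came from EAE 1, 1549 from Healthy 1 and 684 from Healthy 2. Cells needed 200 genes and at most 10% mitochondrial UMIs. Gates used marker UMIs: at least 5 over 2 fibroblast markers, or at least 2 for mural classes, with at most 1 UMI of other classes' markers. No doublet caller was run. Loosening the endothelial limit meant leaving out a cell only with 3 distinct endothelial markers. The gates with that limit loosened, the mural gates set against fibroblast UMIs, the fibroblasts without bone or cartilage markers, the barcodes of 1 library alone and the comparison with mural cells together were chosen after cell numbers, marker sums or values had been seen.

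UMIs were summed per library and class (at least 10 cells) and tested with edgeR 4.0.16 (quasi-likelihood, TMM scaling, filterByExpr), with batch and state as terms, or library and class, in R 4.3.3. P-values were adjusted over all genes tested, with a threshold of 0.05, and the SE is the log2 fold change over the root of F. The fit was also run on simulated counts with the same spread for every gene and no batch effect, so that run does not vouch for these data. DESeq2 1.42.0, other scalings, filters, gates and the removal of each library were tried. Shares were thinned to 1000 UMIs and tested by exact permutation over 10 splits. Poisson and Clopper-Pearson intervals (95%) and limits of 3 counts for a 0 cover counting error only. The genes named from the 2 other lists were up to 3 risers and 3 fallers each, past the threshold, with the largest changes and at least 20 CPM. Members, lists and gates were chosen with earlier results of these data known. Some genes, and 1 group of fibroblasts gated by them, are not reported here.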

Additional observations from a re-analysis of the deposited data

Results flagged for a closer look

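The effect of EAE on Col4a2 differed between fibroblasts and mural cells by a test of the difference itself, with a log2 fold change 1.69 larger in fibroblasts (SE 0.42, edgeR adjusted p = 0.0116). Col4a2 was higher in EAE in 2 of 2 fibroblast sums, whereas in mural cells of the first gate Healthy 3 lay above EAE 2 (609 CPM in EAE 2 against 778 CPM in Healthy 3). With the endothelial limit loosened (1227 against 778 CPM) and with the second gate (1055 against 843 CPM) EAE 2 lay above Healthy 3. The difference kept its direction but did not pass in 8 of 12 alternatives. The mural sum of EAE 2 held 13 cells and that of Healthy 3 held 16. Groups of 2 and 3 libraries are too small for a test of single libraries that stand apart.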

How the results depend on the processing

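No paired analysis was possible because EAE 1 carries no replicate number in the labels, so EAE and Healthy share only the number 2. In fibroblasts between the states, the directions of Col4a1, Col4a2, Col15a1, Col18a1, Col7a1 and Col8a1 held in every alternative that tested them. The median of all genes was 0.11 with library totals against 0.0035 with TMM, and no call among the 8 changed with it. Why the counts and signs below moved was not tested.

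DESeq2 called 416 genes higher and 439 lower between the states in fibroblasts, and 15 higher in mural cells. It called 17 higher and 51 lower against pericytes (0 collagens), 476 higher against smooth muscle cells (1 collagen higher, 0 lower) and 560 higher against mural cells together (1 collagen higher, 0 lower). For the difference of the state effect it called 14 larger, 9 smaller and 0 collagens. All barcodes as deposited gave 426 genes higher in EAE fibroblasts with 1 collagen higher, 8 genes lower in EAE mural cells, and 20 genes and 0 collagens with a larger state effect in fibroblasts. There 0 collagens were lower than in smooth muscle or mural cells, and signs turned for Col18a1 against pericytes (-0.00090), Col4a5 against smooth muscle (0.024) and mural cells (0.092), the Col8a1 difference of state effects (-0.40) and the Col4a1 share of the pair (2.15 points). Barcodes of 1 library alone gave 390 genes higher and 360 lower. Thinned sums gave 267 higher and 244 lower with Col4a6 at -0.094. All sorted cells gave Col4a5 at -0.12 and Col4a6 at -0.015. Unthinned, the Col4a6 share differed by 5.28 points.

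With no filter on low counts, 1257 genes were higher in EAE fibroblasts, and 79 were higher and 19 lower in EAE mural cells with 2 collagens higher. Then Col4a1 and Col4a2 against pericytes stood at 0.0076 and 0.0078, 0 collagens were lower against smooth muscle cells, and Col4a5 was at 0.11 against smooth muscle and 0.11 against mural cells. Library totals gave 7 genes lower in EAE mural cells, 103 higher against pericytes with Col4a5 at -0.010 and Col18a1 at -0.23, 2 collagens lower against mural cells, and Col4a6 at 0.044 in the difference of state effects. No batch term left 0 collagens lower in EAE fibroblasts and 1 gene lower in EAE mural cells. No library block gave 27 higher and 32 lower against pericytes (0 collagens), 638 higher against smooth muscle cells (1 collagen higher, 0 lower), and 369 higher and 390 lower against mural cells (1 collagen higher, 0 lower).

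Allowing 0 UMIs of other classes gave 1 collagen higher and 2 lower against mural cells, and at least 20 cells gave 3 lower with Col4a5 at 0.052. In the first fit against mural cells 10.4% of genes were higher and 7.61% lower, and the shares under these settings are not given here. With the endothelial limit loosened, 49 genes were higher and 22 lower in EAE mural cells, with 2 collagens higher and Col15a1 at 0.12. Against pericytes 329 were lower and Col18a1 was at -0.29, and against mural cells 3 collagens were lower and Col4a5 was at 0.27. For the difference, 80 were larger and 117 smaller, with 0 collagens larger, 1 smaller and Col7a1 at -3.53. Mural cells with more mural than fibroblast UMIs gave 7 genes higher in EAE mural cells. Against mural cells they gave 3 collagens lower and Col4a5 at 0.20. For the difference they gave 11 larger and 21 smaller, with Col4a5 at -0.047. With both settings, 2 collagens were higher in EAE mural cells, Col15a1 was at 4.601 there (1 Healthy UMI, no bound), 241 genes were lower against pericytes with Col18a1 at -0.46, and 1319 were higher against mural cells with 2 collagens lower and Col4a5 at 0.99. For the difference it gave 76 smaller, 1 collagen smaller and Col7a1 at -0.25.

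Leaving out 1 library at a time gave 191 to 918 genes higher and 190 to 806 lower in EAE fibroblasts, 0 to 1 collagens lower, and Col4a6 at -0.38 to 0.74. In EAE mural cells it gave 0 to 47 genes higher, 0 to 18 lower, 0 to 2 collagens higher, Col18a1 at -0.55 to 0.87 and Col4a2 at -0.43 to 1.58. For the difference it gave 15 to 63 larger, 29 to 64 smaller, 0 to 3 collagens larger, Col15a1 at -1.04 to 0.43, Col4a5 at -0.063 to 0.97 and Col4a6 at -6.43 to 6.76. Against mural cells it gave 606 to 1022 genes higher and 470 to 740 lower. Among them were 1 to 3 collagens higher and 0 to 3 lower, and Col4a5 stood at -0.23 to 0.23. Against smooth muscle cells leaving out 1 library gave 524 to 719 genes higher and 479 to 554 lower, with 1 to 2 collagens higher and 0 to 3 lower. The Col4a1 share of the pair differed by -5.77 to 0.93 points and the thinned Col4a6 share by -1.25 to 1.14 points.

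Not run for want of cells or degrees of freedom were fibroblasts against pericytes with 0 UMIs of other classes, at least 20 cells, more mural than fibroblast UMIs alone or 1 library left out, and each fit of pericytes against smooth muscle cells. Few mural cells and the 5 Healthy UMIs of Col7a1 limit the precision of those values.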
